A study of Rattus norvegicus with 6 samples.

Results

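The pyruvate dehydrogenase complex turns pyruvate, the end product of glycolysis, into acetyl-CoA inside the mitochondrion, and the tricarboxylic acid (TCA) cycle oxidises that acetyl-CoA to feed the respiratory chain. A set of 31 genes for this route was followed in H9c2 rat cardiomyoblasts given a gapmer that lowers the long non-coding RNA Tug1: the complex with its kinases and phosphatases, pyruvate entry, the TCA cycle, the malate-aspartate shuttle and glutamate dehydrogenase. Members were the rows of the deposited count table with one of the listed gene symbols, and 31 of 31 symbols were found among 40456 rows. All 31 passed the filter on low counts and were among the 14216 genes tested.

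The complex is switched off by kinases (Pdk genes) that phosphorylate it and switched on by phosphatases (Pdp genes). In heart and muscle, calcium that enters the mitochondrial matrix activates 3 dehydrogenases of this route: pyruvate dehydrogenase through the phosphatase encoded by Pdp1, and NAD-dependent isocitrate dehydrogenase and alpha-ketoglutarate dehydrogenase directly. The subunits Idh3a, Idh3b, Idh3g and Ogdh were therefore set apart as calcium-sensitive. The malate-aspartate shuttle carries reducing equivalents from the cytosol into the matrix.

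H9c2 (2-1) is a line derived from embryonic rat heart, and all libraries came from this line, with the genotype given as WT. Retinoic acid at 1 µM and a lowered serum were given over 5 days to differentiate the cells, which were then transfected with a gapmer made with locked nucleic acids (25 nM) and harvested 24 h later. A gapmer is a short oligonucleotide that recruits RNase H to the RNA it pairs with. The control group (n = 3) received a negative control gapmer and the knockdown group (n = 3) received the Tug1 gapmer, so no group was without oligonucleotide. The labels do not say whether the replicates were separate cultures, and p-values then measure only the spread between these libraries. The oligonucleotides are shown because they are the only difference between the groups that the labels give, each written in lower case from its first base.
Tug1 gapmer: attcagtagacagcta
Negative control gapmer: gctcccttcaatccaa

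Total counts were 12978548 to 13544337 per library, and levels are given as CPM, counts scaled to a common library size with TMM factors, of which 1 stood for 12.9 to 13.8 counts. Tug1 had 54.7, 52.0 and 55.4 CPM in control-gapmer replicates 1 to 3 and 11.9, 11.2 and 12.5 CPM in Tug1-gapmer replicates 1 to 3, or 22.0% of the control level. The labels call the cells cardiomyocytes, but of 13 cardiomyocyte markers only Tnnt2, Actn2, Gata4 and Actc1 passed the filter, and Myh6, Myh7, Nppb, Ryr2, Nkx2-5 and Tbx5 had 3 counts or fewer in every library, with Nppb at 0 throughout. The 13 markers summed to 359 to 391 CPM with the control gapmer and 418 to 470 CPM with the Tug1 gapmer, and Tnnt2 and Actc1 rose. All 8 skeletal muscle markers were tested, and their summed level was 786 to 792 CPM with the control gapmer and 1178 to 1224 CPM with the Tug1 gapmer; 7 of them rose and Myod1 fell (log2 fold change -0.32). The 7 fibroblast markers summed to 37226 to 38914 CPM with the control gapmer and 32294 to 34953 CPM with the Tug1 gapmer, a sum made up mostly of Col1a1 and Col1a2. Of the 6 fibroblast markers tested, Col1a1, Thy1 and Postn fell, Dcn rose (log2 fold change 0.57), and Col1a2 and Lum did not pass. Of the endothelial and macrophage markers, Pecam1, Cdh5, Kdr, Ptprc and Adgre1 had 3 counts or fewer in every library, and Cd68, which is not restricted to macrophages, rose from 3.60 ± 0.992 to 7.65 ± 1.16 CPM (SD, n = 3; log2 fold change 1.09, edgeR adjusted p 2.41e-05). The part of these shifts in the results below was not tested.

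Of the 31 genes, 16 rose and 3 fell after Tug1 knockdown, and 12 stayed short of the threshold, an adjusted p of 0.05 (quasi-likelihood test of edgeR, Benjamini-Hochberg over all tested genes). The 19 changed members (61.3%) compare with 61.7% of all tested genes, so the share that changed was that of the background. In direction, 51.6% of the members rose against 30.8% of all tested genes, and 9.68% fell against 30.9%. The median log2 fold change, knockdown over control, was 0.14 for the members and 0.00 for all tested genes. The median absolute log2 fold change was 0.20 for the members and 0.34 for all tested genes. Members and all tested genes were not matched for level, and control means of the members ran from 8.99 to 481 CPM. No member reached 1, while 9.80% of all tested genes both passed the threshold and reached 1. Control and knockdown values did not overlap for 21 members, against 65.6% of all tested genes. Together the members took 0.369% to 0.374% of the counts with the control gapmer and 0.414% to 0.429% with the Tug1 gapmer. These are levels of RNA in whole cultures, where a change in the number of cells of a type and a change in RNA per cell cannot be told apart.

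**Figure D1:**
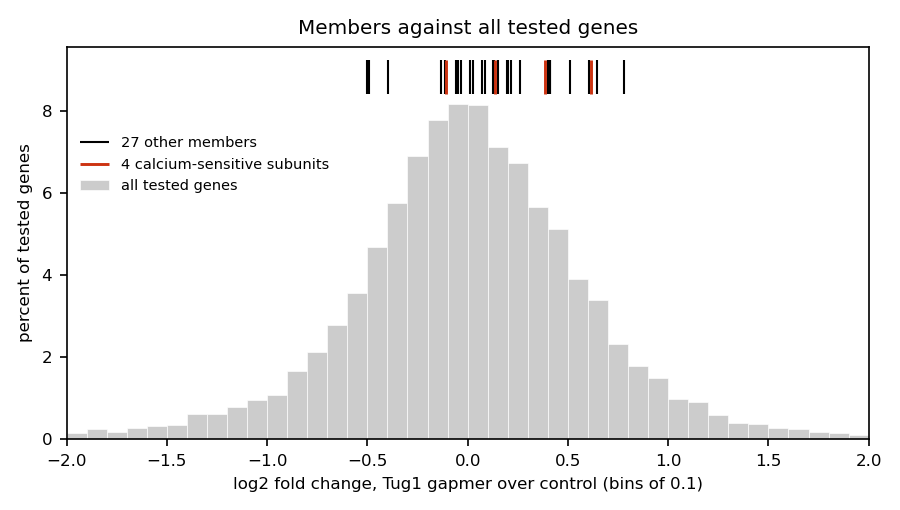
Distribution of the log2 fold change (knockdown over control, x axis, bins of 0.1) over all 14216 tested genes, as percent of genes (y axis); black ticks mark the 27 other members and red ticks the 4 calcium-sensitive subunits. The ticks run from -0.50 to 0.78, inside the 5th to 95th percentile of all genes (-1.02 to 0.97), and 173 genes beyond 2 on either side are outside the plotted range.

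**Figure D2:**
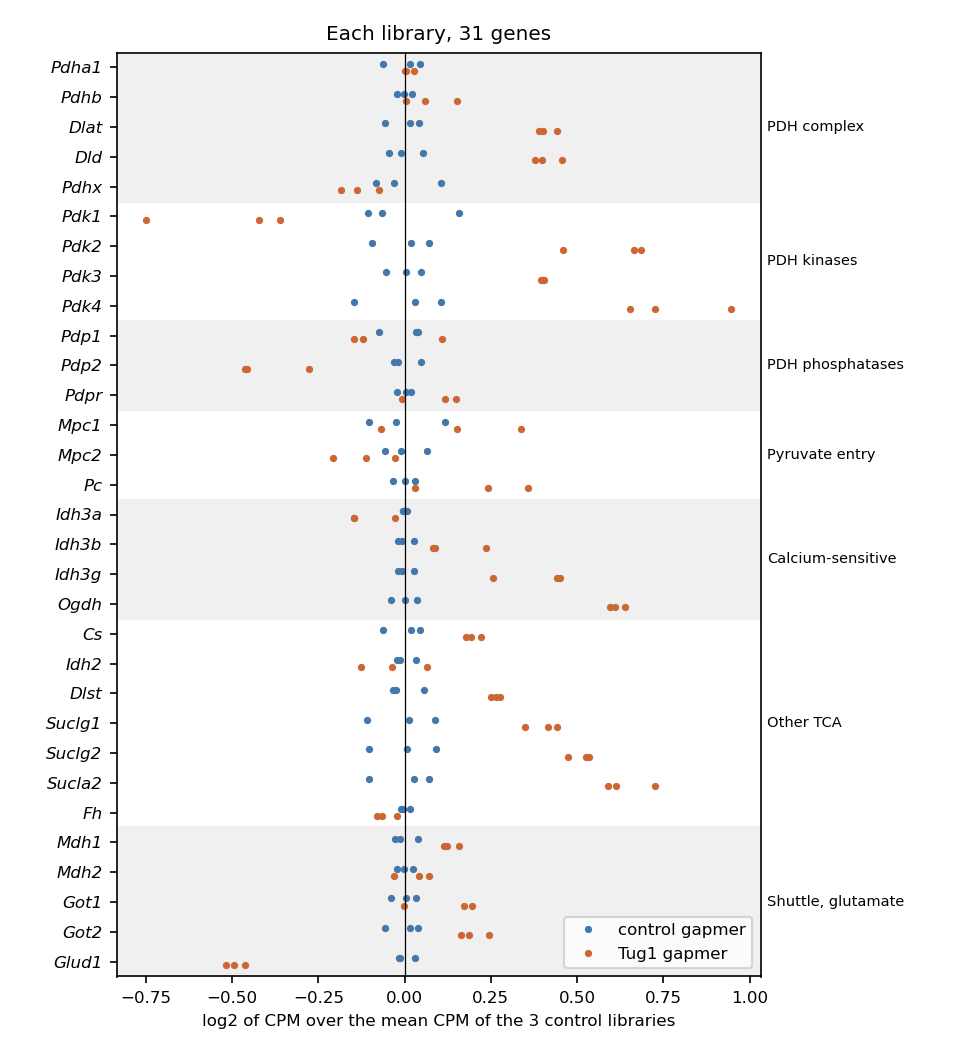
Each library's CPM relative to the mean of the 3 control libraries, on a log2 scale (x axis), for the 31 genes grouped by role (y axis); blue points are control libraries and orange points knockdown libraries. The 2 clouds do not overlap for 21 genes, though for some, such as Pc and Fh, only by a narrow margin. Pdk1, Pdp2 and Glud1 are shifted to the left and Pdk2, Pdk4, Ogdh and Sucla2 furthest to the right.

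Each kinase phosphorylates the dehydrogenase subunit encoded by Pdha1 and so inactivates the complex. All 4 kinase genes passed the test, which 61.7% of all tested genes also passed. The kinase genes did not move in the same direction: Pdk2, Pdk3 and Pdk4 rose and Pdk1 fell. Pdk4, the isoform induced by fasting and fatty acids in muscle, had 9.66, 8.13 and 9.18 CPM in control-gapmer replicates 1 to 3 and 17.3, 14.1 and 14.9 CPM in Tug1-gapmer replicates 1 to 3. Every knockdown library lay above every control library. The log2 fold change of Pdk4 was 0.78 (edgeR adjusted p 4.48e-06, SE 0.117), the highest of the 31 genes, at the lowest control level of the 31 on the CPM scale, which is not corrected for gene length.

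Pdk2, the most widely expressed isoform in adult tissues, had 45.8, 51.3 and 49.4 CPM with the control gapmer and 77.5, 78.5 and 67.1 CPM with the Tug1 gapmer. The groups did not overlap, with knockdown replicate 3 lowest in its group, and the log2 fold change was 0.61 (edgeR adjusted p 4.81e-08, SE 0.0669). Pdk3 had 60.7, 56.7 and 58.9 CPM with the control gapmer against 77.3, 77.7 and 77.6 CPM with the Tug1 gapmer. Its 3 knockdown values lay within 1 CPM of each other, and its log2 fold change was 0.40 (edgeR adjusted p 1.57e-06, SE 0.0556). Pdk1, known as a target of the hypoxia-inducible factor, had 25.7, 25.0 and 30.0 CPM with the control gapmer and 20.1, 20.9 and 16 CPM with the Tug1 gapmer. Its knockdown libraries all lay below the controls, replicate 3 furthest, and the log2 fold change was -0.50 (edgeR adjusted p 0.000143, SE 0.0993).

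On the side of the phosphatases, the calcium-activated Pdp1 did not differ beyond the spread between libraries, while the calcium-insensitive Pdp2 fell. Pdp2 had 111, 118 and 112 CPM with the control gapmer and 82.9, 93.8 and 82.5 CPM with the Tug1 gapmer, and all knockdown values lay below all control values. Its log2 fold change was -0.40 (edgeR adjusted p 2.67e-06, SE 0.0574). Pdp1 had 27.7, 27.6 and 25.6 CPM with the control gapmer and 29.1, 24.3 and 24.8 CPM with the Tug1 gapmer, with overlapping groups. The log2 fold change of Pdp1 was -0.05 (95% interval -0.22 to 0.13, edgeR adjusted p 0.642), and its sign changed with library totals in place of TMM scaling (0.01) and with an offset for gene length (0.07). Pdpr, the regulatory subunit of the phosphatase, was at 52.2 ± 0.690 CPM with the control gapmer and 55.5 ± 3.12 CPM with the Tug1 gapmer (SD, n = 3), with a 95% interval of -0.04 to 0.21 on the log2 scale.

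**Figure D3:**
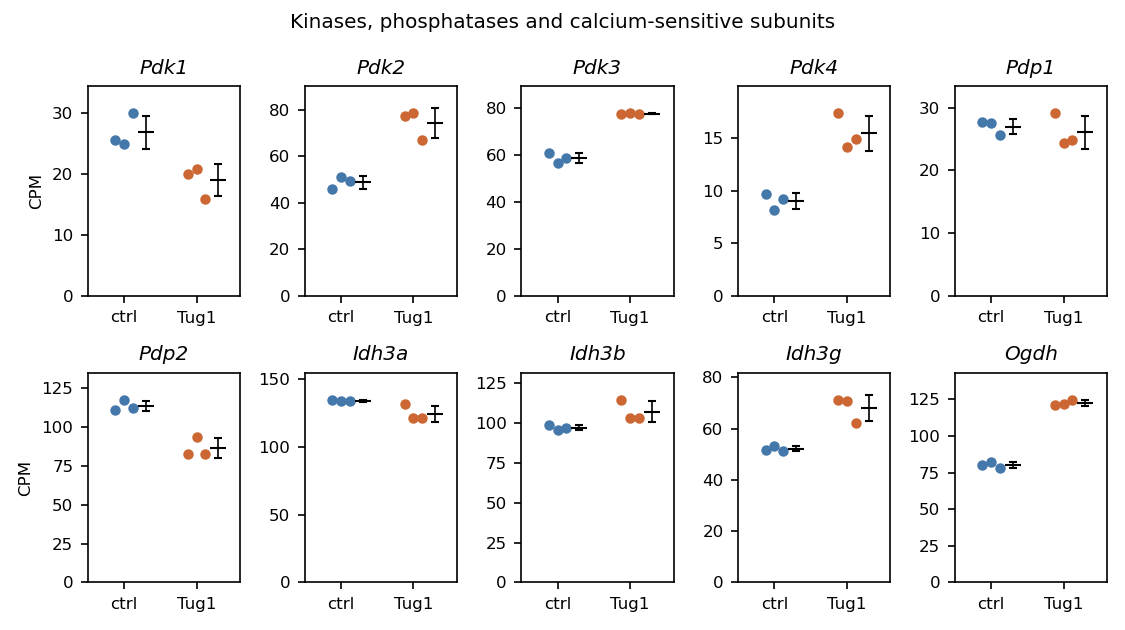
CPM (y axis, from 0, with its own scale in each panel) in each control (ctrl, blue) and knockdown (Tug1, orange) library for the kinase genes Pdk1 to Pdk4, the phosphatase genes Pdp1 and Pdp2 and the 4 calcium-sensitive subunits; black bars are the mean with the SD of 3 libraries. Pdk1 and Pdp2 are lower with the Tug1 gapmer, Pdk2, Pdk3, Pdk4, Idh3g and Ogdh are higher without overlap, and Pdp1 overlaps.

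A ratio of counts of 2 genes within the same library does not depend on how libraries are scaled to each other. The summed counts of the 4 kinase genes over those of Pdp1 and Pdp2 gave a log2 ratio of 0.03, -0.04 and 0.10 in control-gapmer replicates 1 to 3 and 0.78, 0.70 and 0.71 in Tug1-gapmer replicates 1 to 3. The kinase to phosphatase ratio was thus 1.62-fold higher with the Tug1 gapmer, with no overlap between the groups. The sums are of reads and are not corrected for transcript length, so genes with more reads weigh more in the ratio and in its shift. The log2 ratio of Pdk1 to Pdk2 went from -0.83, -1.04 and -0.72 with the control gapmer to -1.95, -1.90 and -2.07 with the Tug1 gapmer, a shift of -1.11 and the largest in size among 19 ratios formed. For Pdp1 over Pdp2 the shift was 0.35, with groups that did not overlap. The ratio of Pdk4 to Pdk2 (shift 0.17) and that of Pdk3 to Pdk2 (-0.20) overlapped between the groups. In an exact two-sided permutation test each non-overlapping ratio gave p = 0.1, the smallest that 3 against 3 libraries allow, or 0.173 after Benjamini-Hochberg adjustment over the 19 ratios, so no ratio could pass 0.05.

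Promoter sequences are shown for Pdk1, the kinase gene that fell, for Pdk2 and Pdk4, the kinase genes with the largest rises, and for Ogdh, the calcium-sensitive subunit that rose most. Each is the 250 bases before the annotated transcript start in the RefSeq table of rat assembly GRCr8, from first to last base in the direction of transcription, in lower case with the hexamer CACGTG (the E-box bound by Myc and upstream stimulatory factors) in capitals. The authors' build was not given in the sources used here, so these positions belong to GRCr8 alone.
Pdk1 (chr3:77113264-77113513, plus strand): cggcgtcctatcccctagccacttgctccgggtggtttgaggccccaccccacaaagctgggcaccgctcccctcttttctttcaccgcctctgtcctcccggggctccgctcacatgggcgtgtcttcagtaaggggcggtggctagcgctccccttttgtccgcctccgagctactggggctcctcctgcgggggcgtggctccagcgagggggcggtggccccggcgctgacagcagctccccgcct
Pdk2 (chr10:80483913-80484162, minus strand): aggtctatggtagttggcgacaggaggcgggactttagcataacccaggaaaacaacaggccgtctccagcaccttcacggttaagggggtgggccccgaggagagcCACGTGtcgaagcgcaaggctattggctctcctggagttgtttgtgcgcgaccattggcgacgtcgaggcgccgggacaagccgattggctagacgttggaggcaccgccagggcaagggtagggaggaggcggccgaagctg
Pdk4 (chr4:34568330-34568579, minus strand): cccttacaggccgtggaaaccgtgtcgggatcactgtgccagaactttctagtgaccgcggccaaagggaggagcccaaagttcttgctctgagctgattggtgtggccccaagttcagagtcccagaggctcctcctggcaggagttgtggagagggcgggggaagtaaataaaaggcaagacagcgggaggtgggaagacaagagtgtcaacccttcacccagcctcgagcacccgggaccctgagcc
Ogdh (chr14:85363781-85364030, plus strand): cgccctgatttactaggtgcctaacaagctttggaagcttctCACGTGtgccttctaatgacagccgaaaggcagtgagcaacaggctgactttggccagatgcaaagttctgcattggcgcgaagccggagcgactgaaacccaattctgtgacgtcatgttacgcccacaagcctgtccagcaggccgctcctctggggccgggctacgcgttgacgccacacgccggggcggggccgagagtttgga

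Promoters of 300 bases (250 before and 50 after the start) were found for 27 of the 31 members, all but Idh3a, Pc, Pdp1 and Pdp2. CACGTG, a palindrome and so the same on both strands, stood in 3 of the 27, those of Ogdh (first base at -208 from the start), Pdk2 (-143) and Pdhb (-186 and -97). That is 11.1% of member promoters, against 9.31% of 10529 promoters of tested genes and 6.65% of all 27457. GCGCANGC, a core of the site of nuclear respiratory factor 1, was found on either strand in 14.8% of member promoters (Dld, Glud1, Mpc2 and Sucla2) and in 18.8% of those of tested genes. TNAAGGTCA, the extended half-site of oestrogen-related receptors, was found in 0 of 27 member promoters and in 0.617% of those of tested genes. The 3 motifs share no matched bases in these promoters. The median GC content was 61.3% in the members and 60.7% in the tested genes. These matches describe letters in a window and were not tested for binding.

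Of the calcium-sensitive subunits, Ogdh, Idh3g and Idh3b rose and Idh3a did not pass the test. The share that rose, 75% of 4 genes, stands beside 71.4% of the other TCA members and 30.8% of all tested genes. Ogdh encodes the decarboxylating subunit of the alpha-ketoglutarate dehydrogenase complex, at which calcium acts. It had 80.2, 82.2 and 77.9 CPM with the control gapmer and 121, 122 and 125 CPM with the Tug1 gapmer. All knockdown values lay above all controls by a wide margin compared with the spread inside either group, and the log2 fold change was 0.61 (edgeR adjusted p 6.04e-10, SE 0.0516). An offset for gene length took Ogdh, in decile 9 of tested genes by genomic span, to 0.48.

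NAD-dependent isocitrate dehydrogenase is built from a catalytic alpha subunit with the beta and gamma subunits. Idh3g had 51.8, 53.2 and 51.4 CPM with the control gapmer against 71.3, 70.8 and 62.3 CPM with the Tug1 gapmer. The groups did not overlap, with knockdown replicate 3 lowest in its group, and the log2 fold change of Idh3g was 0.39 (edgeR adjusted p 1.19e-05, SE 0.0623). Idh3a had 135, 134 and 134 CPM with the control gapmer and 132, 121 and 121 CPM with the Tug1 gapmer. Its groups did not overlap either, in the opposite direction, but the log2 fold change of -0.11 (SE 0.0508) did not pass (edgeR adjusted p 0.0753). Without knockdown replicate 1, its highest library, Idh3a was at -0.14 with an edgeR adjusted p of 0.0281.

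Idh3b was close to the threshold. Its levels were 98.9, 95.9 and 96.7 CPM with the control gapmer and 115, 103 and 103 CPM with the Tug1 gapmer. Knockdown replicate 1 was highest and the groups did not overlap. The log2 fold change of Idh3b was 0.14 (edgeR adjusted p 0.0330, SE 0.0549), and the call was lost without control replicate 1 (0.15, adjusted p 0.0631), control replicate 2 (0.13, 0.0910), control replicate 3 (0.14, 0.0642) or knockdown replicate 1 (0.09, 0.205). It was also lost in DESeq2's Wald test (adjusted p 0.0611), while the length offset took Idh3b to 0.27. In GRCr8 Idh3b overlaps Nop56, which had up to 1946 counts in a library and a log2 fold change of -0.19, and whether reads were counted by strand is not given in the sources used here.

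Within each library, the beta and gamma subunits shifted against alpha. The log2 ratio of Idh3g to Idh3a was -1.38, -1.33 and -1.38 with the control gapmer and -0.88, -0.78 and -0.96 with the Tug1 gapmer, a 1.4-fold shift. For Idh3b over Idh3a it was -0.45, -0.48 and -0.47 with the control gapmer and -0.20, -0.23 and -0.24 with the Tug1 gapmer, a 1.18-fold shift. Neither ratio overlapped between the groups, each with p = 0.1 in the exact permutation test and 0.173 after adjustment. Idh2, the NADP-dependent isocitrate dehydrogenase of the matrix, which is not calcium-sensitive, was at 148 ± 3.09 CPM with the control gapmer and 145 ± 9.60 CPM with the Tug1 gapmer (SD, n = 3), with a 95% interval of -0.14 to 0.08 on the log2 scale. The sign of Idh2 changed with library totals (0.02).

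The pyruvate dehydrogenase complex itself split by subunit. Dlat, the acetyltransferase that forms the core, and Dld, the dihydrolipoyl dehydrogenase shared with the alpha-ketoglutarate and branched-chain complexes, both rose, while the subunits of the decarboxylating enzyme, Pdha1 and Pdhb, and the tethering protein gene Pdhx did not pass. Dlat had 68.6, 65.3 and 69.9 CPM with the control gapmer and 89.8, 89.0 and 92.3 CPM with the Tug1 gapmer. Every knockdown value was above every control, with a log2 fold change of 0.41 (edgeR adjusted p 7.63e-07, SE 0.0545). Dld had 123, 120 and 128 CPM with the control gapmer and 161, 163 and 170 CPM with the Tug1 gapmer, again without overlap, and the same log2 fold change of 0.41 (edgeR adjusted p 1.95e-07, SE 0.0497).

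Pdha1, the subunit that the kinases phosphorylate, was at 210 ± 8.22 CPM with the control gapmer and 212 ± 2.13 CPM with the Tug1 gapmer (SD, n = 3). Its groups overlapped and the 95% interval of the log2 fold change was -0.08 to 0.11, with a value of -0.02 without control replicate 2. Pdhb was at 71.3 ± 1.08 and 75 ± 3.90 CPM (interval -0.04 to 0.19) and Pdhx at 29.0 ± 1.99 and 26.5 ± 1.0 CPM (interval -0.29 to 0.03). With the length offset both passed the threshold, Pdhb at 0.20 and Pdhx at -0.25. Within libraries, the log2 ratio of Pdhx to Dlat went from -1.14, -1.2 and -1.35 with the control gapmer to -1.81, -1.76 and -1.74 with the Tug1 gapmer, and that of Dlat to Pdhb from -0.03, -0.13 and -0.05 to 0.18, 0.32 and 0.31. Both ratios were without overlap, and the ratio of Pdha1 to Pdhb (shift -0.06) overlapped.

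Upstream of the complex, pyruvate enters the matrix through a carrier made of Mpc1 and Mpc2, and pyruvate carboxylase (Pc) converts it to oxaloacetate. Neither carrier gene passed the test. Mpc1 had 57.7, 54.7 and 63.6 CPM with the control gapmer and 74.2, 65.2 and 56.0 CPM with the Tug1 gapmer, and knockdown replicate 3 lay inside the control range. Its log2 fold change of 0.15 (edgeR adjusted p 0.103, SE 0.0792) passed the threshold without knockdown replicate 3 (0.25), without control replicate 3 (0.22), with library totals (0.20) and with the length offset (0.22). It was smaller without knockdown replicate 1 (0.05, edgeR adjusted p 0.603) and without control replicate 2 (0.10, edgeR adjusted p 0.358), so single libraries decided its size. Mpc2 was at 70.9 ± 3.03 CPM with the control gapmer and 65.5 ± 4.03 CPM with the Tug1 gapmer (SD, n = 3), with an interval of -0.24 to 0.01, and passed without knockdown replicate 2 (-0.16).

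Pc had 131, 134 and 128 CPM with the control gapmer and 155, 168 and 134 CPM with the Tug1 gapmer. Knockdown replicate 3 (134.05 CPM) lay just above the highest control (133.92 CPM), so the groups escaped overlap only by a narrow margin. The log2 fold change of 0.22 (edgeR adjusted p 0.00452, SE 0.0627) was 0.14 without knockdown replicate 2. Pc is in decile 9 of tested genes by span, and with the length offset its log2 fold change was 0.03 (edgeR adjusted p 0.728), so the call depended on that setting. In GRCr8 Pc also overlaps Lrfn4, which fell from 134 ± 14.7 to 62.2 ± 0.674 CPM (SD, n = 3).

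In the remainder of the TCA cycle, 5 of 7 members (71.4%) rose and none fell, beside 30.8% higher and 30.9% lower among all tested genes. The largest change was in succinyl-CoA ligase, the step that forms ATP or GTP directly, whose alpha subunit (Suclg1) pairs with an ATP-forming (Sucla2) or a GTP-forming (Suclg2) beta subunit. Sucla2 had 51.4, 49.8 and 45.5 CPM with the control gapmer and 80.8, 73.6 and 74.8 CPM with the Tug1 gapmer. The groups were far apart, with a log2 fold change of 0.64 (edgeR adjusted p 6.01e-09, SE 0.0623). Suclg1 had 103, 95.1 and 109 CPM with the control gapmer and 139, 131 and 137 CPM with the Tug1 gapmer, a log2 fold change of 0.40 (edgeR adjusted p 1.36e-06, SE 0.0556) without overlap.

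Suclg2 had 54.4, 50.4 and 57.6 CPM with the control gapmer and 78, 75.1 and 78.3 CPM with the Tug1 gapmer. All its knockdown values lay above the controls, with a log2 fold change of 0.51 (edgeR adjusted p 1.25e-07, SE 0.0600). Suclg2 is the longest of the members at a span of 270 kb in GRCr8, and with the length offset it was at 0.16 (edgeR adjusted p 0.0166), while Sucla2 was at 0.54. Within libraries, the ratio of Sucla2 to Suclg2 overlapped between the groups (shift 0.13, exact permutation p = 0.3), and the ratios of either beta subunit to Suclg1 did not (shifts 0.24 and 0.11, exact permutation p = 0.1 each). These ratios were formed without the length offset. With that offset Suclg1 was at 0.39, above Suclg2, so which of Suclg1 and Suclg2 rose further depended on that setting.

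Citrate synthase and the succinyltransferase of the alpha-ketoglutarate complex changed less. Cs, which opens the cycle, had 301, 285 and 307 CPM with the control gapmer and 347, 340 and 337 CPM with the Tug1 gapmer, without overlap and with a log2 fold change of 0.20 (edgeR adjusted p 0.000519, SE 0.0445). Dlst was at 192 ± 6.79 CPM with the control gapmer and 230 ± 2.01 CPM with the Tug1 gapmer (SD, n = 3), which is a log2 fold change of 0.26 (edgeR adjusted p 3.06e-05, SE 0.0459). Its partner Ogdh rose further, and the log2 ratio of Dlst to Ogdh went from 1.22, 1.2 and 1.36 with the control gapmer to 0.94, 0.92 and 0.87 with the Tug1 gapmer. Fumarase (Fh) was at 74.3 ± 0.700 and 71.5 ± 1.48 CPM (SD, n = 3), with groups that did not overlap but a log2 fold change of -0.06 (95% interval -0.17 to 0.06) that did not pass.

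The malate-aspartate shuttle uses a malate dehydrogenase and an aspartate aminotransferase on either side of the inner membrane, cytosolic Mdh1 and Got1 and mitochondrial Mdh2 and Got2. Of these, Mdh1 and Got2 rose by small amounts and the other two did not pass. Got2 had 463, 494 and 486 CPM with the control gapmer and 547, 570 and 539 CPM with the Tug1 gapmer, without overlap, at a log2 fold change of 0.20 (edgeR adjusted p 0.000383, SE 0.0434). Mdh1 had 217, 227 and 219 CPM with the control gapmer and 246, 240 and 239 CPM with the Tug1 gapmer, also without overlap. Its log2 fold change was 0.13 (edgeR adjusted p 0.0144, SE 0.0447), and the call was lost without control replicate 1 (0.12, adjusted p 0.0789).

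Mdh2 was at 297 ± 4.69 CPM with the control gapmer and 302 ± 11 CPM with the Tug1 gapmer (SD, n = 3), with an interval of -0.06 to 0.12, and passed only with the length offset and the replicate block together (0.09, edgeR adjusted p 0.0469). Got1 was at 122 ± 3.11 and 133 ± 9.79 CPM, a log2 fold change of 0.12 (edgeR adjusted p 0.0570, SE 0.0555) that passed with library totals (0.18) and without knockdown replicate 3 (0.19). The log2 ratio of Mdh1 to Mdh2 shifted by 0.10 without overlap, and that of Got1 to Got2 by -0.08 with overlap.

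Glud1, glutamate dehydrogenase, which feeds alpha-ketoglutarate into the cycle from glutamate, was the third gene that fell. It had 283, 293 and 284 CPM with the control gapmer and 203, 200 and 208 CPM with the Tug1 gapmer. The gap between the groups was many times the spread inside either, and the log2 fold change was -0.49 (edgeR adjusted p 1.91e-09, SE 0.0443).

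**Figure D4:**
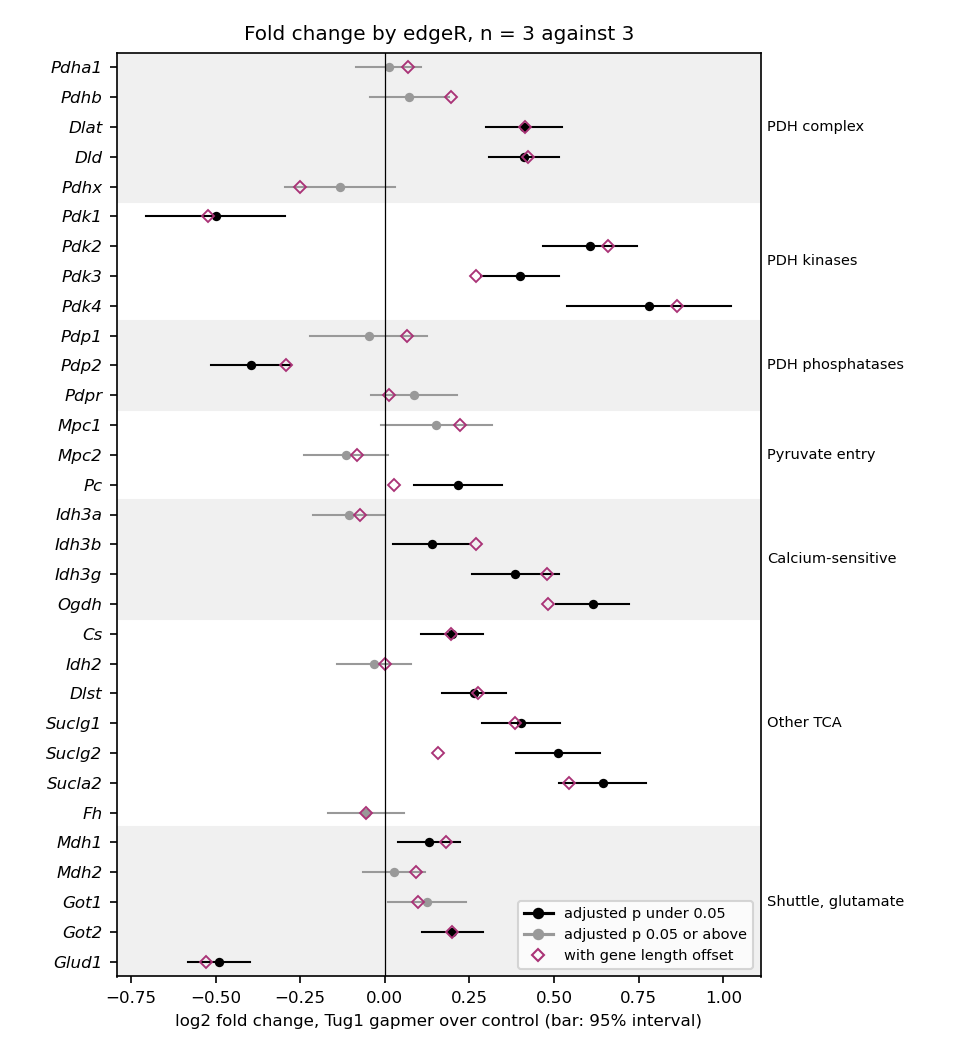
Log2 fold change, knockdown over control (x axis), of the 31 genes grouped by role (y axis), with the 95% interval of the edgeR fit as a bar; filled circles are black where the adjusted p is under 0.05 and grey otherwise, and open diamonds give the value with the gene length offset. The diamond lies outside the bar for Pdhb, Pdk3, Pc, Idh3b, Ogdh and Suclg2, furthest for Suclg2 (0.16 against 0.51) and Pc (0.03 against 0.22), and Glud1, Pdk1 and Pdp2 stay to the left of 0.

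**Figure D5:**
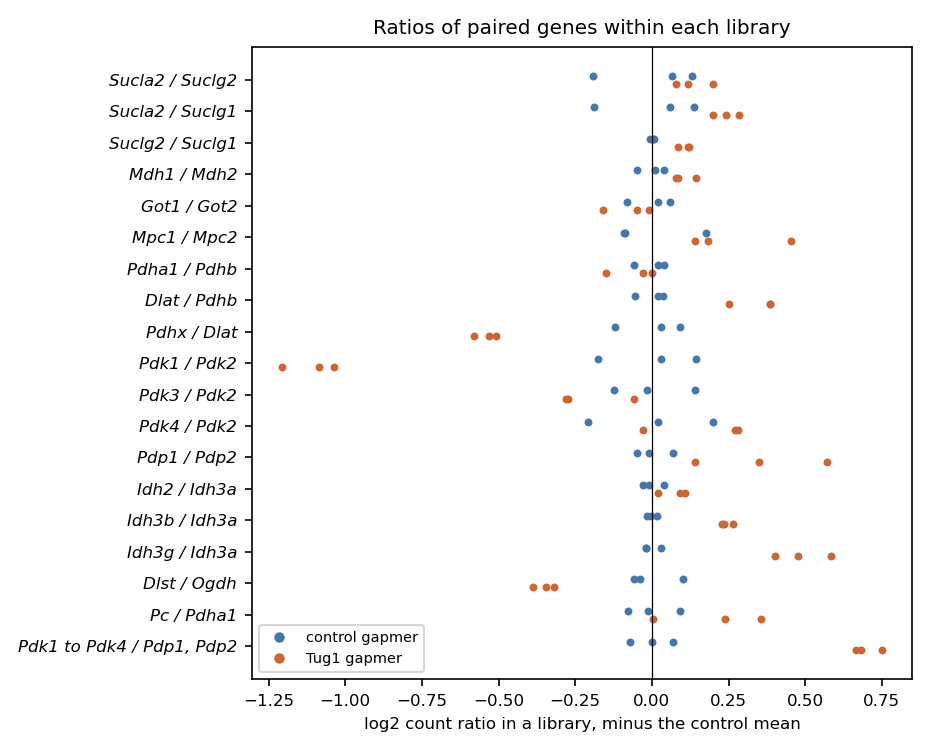
Log2 ratio of counts within each library for 19 pairs of members, minus the mean of the 3 control libraries (x axis), with pairs on the y axis; blue points are control and orange points knockdown libraries. The 2 groups are apart for 11 ratios (57.9%), furthest for Pdk1 over Pdk2 (-1.11) and for the kinases over the phosphatases (0.70). By level rather than ratio, the groups are apart for 65.6% of all tested genes, and ratios of other gene pairs were not formed.

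Genes of the same route outside the 31 were counted from a list of TCA enzymes, carriers and neighbouring steps. Of 26, 25 were tested, 11 rose and 7 fell, with a median log2 fold change of 0.03; the 72% that changed stand beside 61.7% of all tested genes. The 4 succinate dehydrogenase genes rose, from 0.21 for Sdha to 0.36 for Sdhd. Slc25a11, the oxoglutarate-malate carrier of the shuttle, rose by 0.73 on the log2 scale, and Acly, which cleaves exported citrate, by 0.91. Of the aspartate-glutamate carrier genes of the shuttle, Slc25a12 rose by 0.28 and Slc25a13 did not pass (-0.04, edgeR adjusted p 0.765). Glul, glutamine synthetase, fell by 1.12 on the log2 scale, from 145 ± 2.5 to 67.0 ± 1.32 CPM (SD, n = 3). Ogdhl, a paralogue of Ogdh, fell by 0.86 at a level of 12.7 ± 1.42 CPM with the control gapmer (SD, n = 3).

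A second list held 17 genes for transcription factors, coactivators and sirtuins known to act on these genes or on their proteins. Of these, 16 were tested, 8 rose and 2 fell, with Ppargc1a below the filter. The share that changed, 62.5%, was close to the 61.7% of all tested genes. Among factors known for control of Pdk4, Foxo1 went from 6.55 ± 0.197 to 13.5 ± 0.168 CPM (log2 fold change 1.04) and Ppard from 21.5 ± 1.85 to 43.5 ± 4.71 CPM (1.01). Pparg rose by 0.85 at 2.03 ± 0.527 CPM with the control gapmer, and Ppara fell by 0.49 at 5.27 ± 1.08 CPM (SD, n = 3). The coactivator gene Ppargc1b (0.93) and Mef2d (0.69) rose, Myc fell by 0.87, and Hif1a, whose product acts on Pdk1, was at -0.08 (edgeR adjusted p 0.191). Of the factors whose motifs were sought in the promoters, Esrra rose by 0.34 (edgeR adjusted p 3.12e-05) and Nrf1 did not pass (0.14, edgeR adjusted p 0.231). The regulators' RNA levels are given beside the members, and their part in the members' changes was not tested.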

How the data were processed

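Poly-A RNA of H9c2 cells was sequenced as 6 stranded libraries, per the labels' protocols. The authors deposited raw whole-number counts per gene symbol for each library. FastQC 0.11.7, fastp 0.14.1 and STAR 2.5 are named in the submitters' processing notes; the counting tool, genome build and strand setting are not given in the sources used here. The table had 0 unnamed rows and 0 columns outside the 6 libraries. The fit used edgeR 4.0.16 under R 4.3.3: filterByExpr (minimum count 10, minimum total 15), TMM factors of 0.979 to 1.02 and the quasi-likelihood test on all 6 libraries, two-sided, with adjustment over 14216 genes and a threshold of 0.05. SEs are the absolute log2 fold change over the square root of the F statistic, and CPM use TMM-scaled library sizes. At most 3 counts (0.217 to 0.232 CPM) was taken as not detected, for counting error only. Ratios within libraries used a pseudocount of 0.5 counts. The fit was tested on simulated counts in which a small part of the genes changed, equally up and down. That setting differs from these data, where 61.7% of tested genes were called, so it does not cover so wide a change. Genomic spans came from GRCr8 and covered 92% of tested genes.

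All 31 members are named. The succinate dehydrogenase genes, Slc25a12, Slc25a13, Ppara, Esrra, Nrf1 and Hif1a were named after their values were seen. Other pathway genes are named where they passed 0.05 and moved by 0.5 or more on the log2 scale. A gene of the pathway list that met this rule is not reported here, though the counts of the list include it. Members, lists and alternatives were chosen with earlier results of these data known. Alternatives were other scalings and filters, DESeq2 1.42.0, limma-voom (limma 3.58.1), a threshold of 0.01, a length offset (lowess span 0.3), the replicate number as a block, and each library left out. Levels per transcript length were not used here.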

Additional observations from a re-analysis of the deposited data

How the results depend on the processing

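Over 16 alternatives, all planned with earlier results known, the number of changed members ran from 17 to 22 (14 to 18 higher, 3 to 4 lower) and that of all tested genes from 7353 to 8987. With a library left out these counts ran from 17 to 21 members and from 8128 to 8410 genes. The number of genes tested differed between settings. With no filter beyond 1 count, the 8987 genes were 34.5% of 26059, and 18 of 31 members were called. With a filter at a mean of 1 CPM, 63.2% of tested genes and 19 members were called. Of 31 members, 18 kept their direction and call in every alternative, and over 496 combinations of member and alternative 11 lost a call, 14 gained one and 8 changed sign. No gene that changed sign was called: Pdp1 was at 0.0052 with library totals, 0.066 with the length offset, 0.064 with that offset and the block, and between -0.13 and 0.0017 with a library left out, highest without knockdown replicate 2; Idh2 was at 0.022 with library totals, 0.0011 with the length offset and between -0.079 and 0.017 with a library left out, highest without knockdown replicate 2; and Pdha1 lay between -0.022 and 0.037 with a library left out, lowest without control replicate 2. The 19 within-library ratios changed sign in 0 of 152 combinations of ratio and setting, where the settings were other pseudocounts and each library left out. The length offset, which moved some members most, was not applied to the ratios.

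Replicate numbers did not pair the libraries, whose same-numbered deviations correlated at -0.0053, 0.030 and 0.027 across genes. With the replicate number as a block 19 members and 8848 genes were called, and no member's call changed. The planned order of levels per kilobase was not run, since transcript lengths were not used here. The length offset moved Pdhb, Pdk3, Pc, Idh3b, Ogdh and Suclg2 beyond the 95% interval of the fit without it. The cause of the changes was not tested. Depth limits Pdk4 most, with 105 to 239 counts per library.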
